A study of Saccharomyces cerevisiae with 24 samples.

Results

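The comparison described here set 3 libraries of the Pho92 mutant L38P against 3 libraries of CUP1-PHO92, which expressed the wild-type protein from the same promoter. They are 6 of the 24 libraries of the series and were chosen by their labels alone. All were poly(A) RNA libraries from diploid budding yeast that had been shifted to sporulation medium, a starvation medium with acetate in which cells enter meiosis. Copper sulfate at 50 µM was added 3 h after the shift. Both strains were MATa/alpha and carried the auxotrophic alleles trp1::hisG, his3::hisG, leu2::hisG, ura3 and lys2 with ho::LYS2, and in both the native PHO92 was replaced by a hygromycin marker. The only PHO92 was an HA-tagged copy at TRP1 under the copper-inducible CUP1 promoter, so the PHO92 transcript reports the construct and not the native gene. In L38P this copy encodes proline in place of leucine at residue 38. The other groups used below are a strain without PHO92 (pho92Δ, native gene deleted and no CUP1 copy), the unmodified wild type (WT), and CUP1 strains with Pho92 lacking residues 35 to 42 (Δ35–42) or with W177A. CUP1 strains with L35A or I39A enter the fit of all libraries and the ranges over other groups. Their native PHO92 was also deleted, and the title and genotype label of I39A disagree on the residue that was replaced. Each of them had 3 libraries, kept in sporulation medium and given copper in the same way. Header lines of the deposited table give 1 strain number to all 3 L38P libraries (13033) and another to CUP1-PHO92 (10829), so the mutation and any other difference between these strains cannot be told apart. The same header gives 10829 to the W177A libraries too. The sources used here do not say how long after copper the cells were collected, or whether replicates were separate cultures. The p-values therefore measure the spread between these libraries.

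Pho92 is a YTH-domain protein, the family that reads N6-methyladenosine (m6A) in mRNA. In budding yeast m6A is written during meiosis by a complex around the methyltransferase Ime4, and Pho92 is known to bring methylated transcripts to decay together with the CCR4-NOT deadenylase. Meiosis in this yeast runs as a transcriptional cascade. Ime1 switches on early genes of recombination and chromosome pairing through Ume6 at URS1 elements, and Ndt80 then switches on middle genes of the divisions and of spore formation through middle sporulation elements (MSE). Residue 38 lies in a disordered part of Pho92 before the YTH domain. The stretch below holds codons 35 to 42, the segment missing in Δ35–42, and is shown because codon 38, in capitals, is the one changed in L38P. It was read from the RefSeq genome R64 at chrIV:1224269-1224292, minus strand, in the single exon of PHO92 (YDR374C). The codon used for proline in the strain is not given in the sources used here.
PHO92 codons 35 to 42: ctagatgggTTGatccattccttg

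Library depth was 16108079 to 20459732 counts in CUP1-PHO92 and 21009021 to 25710208 in L38P, so that 3 counts, taken as the floor of detection, equalled 0.104 to 0.179 CPM, the count divided by the scaled library size. Libraries of CUP1-PHO92 and replicates 1 and 3 of L38P are marked batch A in the header, and replicate 2 of L38P is marked batch B. On the first principal component of all 24 libraries (50.8% of the variance) the L38P libraries lay at 26.2, 47.8 and 37.8, above every other library, the highest of which was at 20.2. L38P replicate 2 lay farthest out, and it was the lowest of the 3 in 71 of the 87 genes of the m6A writer and meiotic lists described below, from early genes to spore wall. Results are therefore also given without it, which leaves batch A alone in both groups compared, or with batch as a term in the fit. The only other batch B library, replicate 1 of W177A, stays in the fit of all libraries. It lay at 14.4 on the first component, nearer to L38P than the other W177A libraries (-7.73 and -0.195). Its early meiotic genes summed to 20110 CPM, against 25020 and 25140 CPM, and its ribosomal proteins to 7547 CPM, against 4483 and 4939 CPM. Its proteasome genes summed to 14090 CPM, against 18900 and 18070 CPM, and its spore wall genes to 2892 CPM, against 4610 and 4049 CPM. Its sulfur assimilation genes summed to 3864 CPM, against 3087 and 3224 CPM. All of these sums lay on the side of L38P. Its ribosome biogenesis genes, at 3551 CPM against 3597 and 4284 CPM, did not. Nor did its premeiotic DNA replication genes (4591 against 4922 and 5002 CPM) or its phosphate genes (3551 against 3320 and 3380 CPM). The genes that mark prophase of meiosis (IME1, IME2, SPO11, HOP1, RED1, ZIP1, DMC1, REC8 and MEK1) were abundant in every library, but their summed level was 8209 to 12070 CPM in L38P and 16590 to 20460 CPM in CUP1-PHO92. In the libraries of the other 6 groups of the series it was 16230 to 22370 CPM.

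PHO92 transcript itself did not differ by the test. It had 16419, 11670.0 and 9969.8 CPM in the CUP1-PHO92 libraries and 11867, 12320.0 and 10668 CPM in the L38P libraries, which overlapped. Its log2 fold change was -0.13, with an adjusted p of 0.723 and an SE of 0.267 (edgeR quasi-likelihood test with Benjamini-Hochberg adjustment, used throughout). In the strain without the gene PHO92 stood at 0.279 ± 0.411 CPM, and in WT, from its own promoter, at 859 ± 61.1 CPM (SD, n = 3 each). Amounts of the protein were not measured. A change in the amount of the mutant protein, a change in its function and another strain difference therefore cannot be told apart. TRP1 (YDR007W), the marker gene at the integration site, had 8.18, 5.60 and 8.91 CPM in CUP1-PHO92 and 23.4, 25.5 and 31.0 CPM in L38P. It was higher by a log2 of 1.82 (adjusted p 9.46e-06, SE 0.208). Its mean was 21.7 CPM in pho92Δ, 23.8 in W177A, 18.2 in WT, 16.3 in L35A, 11.1 in Δ35–42 and 8.83 in I39A. L38P did not pass against pho92Δ (adjusted p 0.274) or W177A (adjusted p 0.542) but did against Δ35–42 (1.27, adjusted p 0.000149). The neighbours of TRP1 on chromosome IV moved less. GAL3, a sensor of galactose, was higher by 0.76 (adjusted p 0.00389), SOK1 by 0.48 (adjusted p 0.0208) and MAF1, a repressor of RNA polymerase III, was lower, at -0.29 (adjusted p 0.00711). Without L38P replicate 2 neither SOK1 nor MAF1 passed. FRQ1 and BCS1 beside the native PHO92 locus had log2 fold changes of -0.12 and -0.05 (adjusted p 0.383 and 0.762). The lowly expressed YDR008C beside TRP1 had one of -0.16 (adjusted p 0.779).

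In L38P most genes of meiotic recombination, of the meiotic divisions and of spore formation were lower than in CUP1-PHO92, with medians of -0.90 on the log2 scale for early genes and -2.57 for spore wall genes, while most ribosomal protein, amino acid and sulfur genes were higher. Genes of premeiotic DNA replication went both ways, with more higher than lower. Of 5698 features tested, 1316 (23.1%) were higher and 1191 (20.9%) were lower at an adjusted p under 0.05, 44% in all. These are the shares against which each gene list below is read. The median log2 fold change was 0.615 among the higher genes and -0.536 among the lower genes. Changes of at least 2-fold were more frequent upwards (301 genes higher, 184 lower), and changes of at least 4-fold downwards (17 higher, 76 lower). The median over all features was 0.0419.

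**Figure D1:**
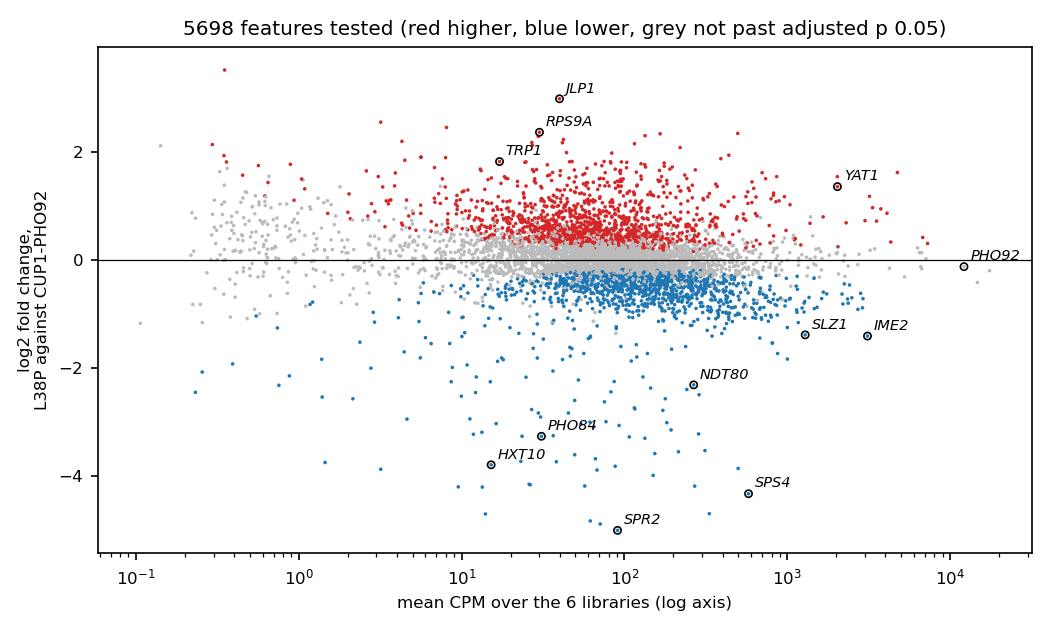
Log2 fold change of L38P against CUP1-PHO92 (vertical axis) against the mean CPM over the 6 libraries (horizontal log axis) for 5698 features; red and blue points are genes higher and lower at an adjusted p under 0.05, grey points did not pass, and circled points carry a gene name. Among the circled genes SPR2 and SPS4 lie lowest at -5.01 and -4.33, JLP1 highest at 2.98, and PHO92 near 0 at -0.13.

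Of 11 regulators of meiotic entry 4 fell in L38P and 7 did not pass. IME1 (YJR094C), the master transcription factor of meiotic entry, had 3990.5, 3724 and 2539 CPM in CUP1-PHO92 and 2554, 2279 and 1838 CPM in L38P. The highest L38P library lay just above the lowest CUP1-PHO92 library, so the groups overlapped, and IME1 fell by 0.62 (log2, adjusted p 0.0084, SE 0.177). Of 13 alternative fits only the one without CUP1-PHO92 replicate 1 lost this call (adjusted p 0.0509, range 0.000854 to 0.0509). IME2 (YJL106W), the meiosis-specific kinase that acts after Ime1, had 4246, 5339 and 3958 CPM against 2134, 1341 and 1618 CPM in L38P. Its groups were far apart, at -1.41 on the log2 scale (adjusted p 1.04e-05, SE 0.173). NDT80 (YHR124W), the transcription factor of the middle genes, had 292, 546 and 490.2 CPM against 159, 28.4 and 79.9 CPM, all L38P libraries below all CUP1-PHO92 libraries (-2.31, adjusted p 0.00099, SE 0.494). Together with RIM11, a kinase that acts on Ime1 and Ume6 (-0.39, adjusted p 0.0142, lost without L38P replicate 2), these were the 4 that fell. None rose, and the list median was -0.23. Without L38P replicate 1 the number that fell was 7. With the batch term 2 members rose, and 1 rose without CUP1-PHO92 replicate 1 or with the replicate block. UME6, which anchors Ime1 on early promoters, had a log2 fold change of 0.34 (adjusted p 0.102), and RME1, a repressor of IME1, of 0.39 (adjusted p 0.0827).

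The complex that writes m6A was lower in 4 of its 6 genes and higher in none (median -0.71). SLZ1 (YNL196C), a meiosis-specific subunit, had 1841, 1924 and 1825 CPM in CUP1-PHO92 and 860.1, 510.3 and 764 CPM in L38P. The CUP1-PHO92 libraries were nearly equal and no L38P library came near them, and SLZ1 fell by 1.39 (adjusted p 2.38e-05, SE 0.192). KAR4 fell by 0.95 (adjusted p 2.96e-05) and MUM2, a subunit that binds Ime4, fell by 0.74 (adjusted p 2.44e-05). IME4 (YGL192W), the methyltransferase, went from 295, 291 and 303 CPM to 210.4, 164 and 184 CPM (log2 fold change -0.67, SE 0.0815, adjusted p 1.04e-05). IME4 is overlapped along its whole length by the antisense RNA RME2, and without a stated strand setting reads of the pair cannot be told apart. VIR1 (-0.20, adjusted p 0.362) and the dynein light chain gene DYN2 (0.09, adjusted p 0.663) did not pass.

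**Figure D2:**
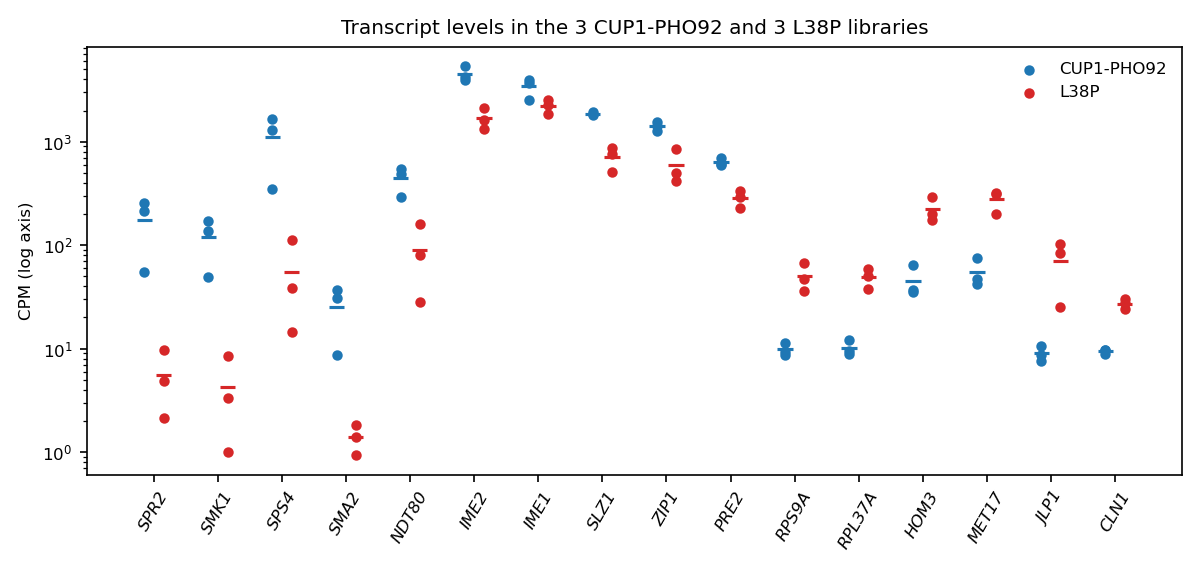
CPM on a log axis for 16 genes in the 3 CUP1-PHO92 libraries (blue points) and the 3 L38P libraries (red points), with short bars at the group means. The red points lie below the blue ones from SPR2 to PRE2, except that the highest for IME1 (2554 CPM) is just above the lowest blue one (2539 CPM), and above them from RPS9A to CLN1.

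Early meiotic genes of recombination and chromosome synapsis were lower almost without exception. Of 30, 29 fell and none rose, with a median of -0.90 and a range of -1.45 to -0.52. HED1 (YDR014W-A), a meiosis-specific regulator of recombination, had one of the lowest p-values among the genes that fell. It had 566, 594 and 588 CPM in CUP1-PHO92 and 278, 202 and 243 CPM in L38P (log2 fold change -1.27, SE 0.130, adjusted p 7.05e-06). REC104 (YHR157W), a partner of the Spo11 nuclease, had 170.4, 158 and 163 CPM against 91.2, 66.7 and 83.8 CPM (-1.02, SE 0.109, adjusted p 8.93e-06). SPO11 itself, which makes the double-strand breaks of meiosis, fell by 1.21 (SE 0.158, adjusted p 1.49e-05). The strand-exchange recombinase gene DMC1 was still among the abundant transcripts of L38P, at 2104, 1394 and 2135 CPM against 3550.5, 3593 and 3495 CPM (-0.92, adjusted p 9.31e-05). In the synaptonemal complex, which holds paired chromosomes together, ECM11 fell by 1.45, GMC2 by 1.32 and ZIP1 by 1.25 (adjusted p 1.84e-05, 2.01e-05 and 7.29e-05). ZIP1 went from 1403, 1567 and 1258 CPM to 850.1, 421 and 503 CPM, with L38P replicate 1 nearest to the CUP1-PHO92 libraries. Without L38P replicate 2 the count was again 29, with a median of -0.743.

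Genes of the middle stage, which depend on Ndt80, fell most. In the list of the divisions 11 of 14 fell (median -1.21), in that of the prospore membrane 16 of 19 (median -1.61) and in that of the spore wall 15 of 18 (median -2.57). SPR2 (YOR214C), a spore wall gene, had the lowest log2 fold change of those named. It had 55.1, 256 and 216 CPM in CUP1-PHO92 and 9.69, 2.14 and 4.84 CPM in L38P (-5.01, SE 1.04, adjusted p 0.00077). SMK1 (YPR054W), a kinase of spore wall assembly, had 49.2, 171 and 137 CPM against 8.56, 1.00 and 3.30 CPM (-4.83, SE 0.948, adjusted p 0.000496). SPS4 (YOR313C), a sporulation-specific gene, had 349.6, 1645 and 1308 CPM against 112, 14.4 and 38.3 CPM (-4.33, SE 0.951, adjusted p 0.00124). In these genes CUP1-PHO92 replicate 1 lay well below the other two libraries of its group and L38P replicate 2 was the lowest of all 6, yet the groups did not overlap. SMA2, needed for the prospore membrane, fell by 4.21 (adjusted p 0.00143). The uncharacterised YPR078C and YKR015C fell by 4.89 and 4.70 (adjusted p 0.000606 and 0.000602), SPS2 by 4.70 (adjusted p 0.000683) and RRT5 by 4.19 (adjusted p 0.00165). Each of these genes passed in all 13 alternative fits.

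A few members of these lists rose or did not pass. NUD1, a protein of the spindle pole body also used in mitosis, was higher (0.49, adjusted p 0.0312), a call that was lost with the batch term and without L38P replicate 1 or 2 or any 1 CUP1-PHO92 library. SPS100 was higher by 0.28 (adjusted p 0.0104). CHS3, a chitin synthase also of vegetative walls, had a log2 fold change of 0.09 (adjusted p 0.582), and the glucan synthase gene GSC2 one of -0.19 (adjusted p 0.464). Among the cyclin genes CLB3 fell by 0.50 (adjusted p 0.017). CLB1, the main cyclin of the first meiotic division, had 25.2, 66.6 and 56.7 CPM against 24.2, 21.7 and 21.3 CPM and did not pass (-1.15, adjusted p 0.104). Without L38P replicate 2 the numbers that fell were 10, 12 and 13 in the 3 lists, with medians of -1.17, -1.42 and -2.26. In bulk RNA, fewer cells that have reached a stage and less RNA per cell cannot be told apart. The 8 markers of cells past prophase summed to 743 to 1682 CPM in CUP1-PHO92 and 181.3 to 405.4 CPM in L38P, with 7 of 8 lower.

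The genes that fell most shared a short element. The MSE core CACAAA was searched on both strands in windows of 250 bases before to 50 bases after each gene start in R64. It was present in 62 of 69 windows (89.9%) of the genes lower by at least 2 on the log2 scale, against 1130 of 6001 windows (18.8%) of all protein-coding genes. In the windows of all 1168 lower genes the share was 26.3%, and in the 1293 of the higher genes it was 15%. The lists differed in the same way. The core was in 15 of 19 prospore membrane windows, 11 of 18 spore wall windows and 4 of 30 early windows. The URS1 core GGCGGC, in turn, was in 18 of 30 early windows (60%), none of 18 spore wall windows and 308 of all windows (5.13%). In the m6A writer list it was in 3 of 6 windows. A match describes these letters and does not show that a factor binds there. The sites nearest to the start codon of 5 genes that carry the result are given 5′ to 3′ along the gene's strand, with the MSE core or its reverse complement in capitals. They are from RefSeq R64: SMK1 at chrXVI:666189-666218 (plus strand), SPS2 at chrIV:1485316-1485345 (minus), SPS4 at chrXV:903047-903076 (minus), SMA2 at chrXIII:141679-141708 (minus) and NDT80 at chrVIII:356464-356493 (plus).
SMK1: cggcgccactaaTTTGTGacacttgaacag
SPS2: caaaaaaaatatTTTGTGgcattacttaga
SPS4: attgacgcgcgcCACAAAaacgtatcattg
SMA2: ggagaacattttTTTGTGtcatcttagggg
NDT80: attgccctccatTTTGTGtcacctatttaa
NDT80 is itself known to carry MSEs in its promoter, and 2 cores were found in the 250 bases before its start. YKR015C, which fell as much as SPS2, had none in the 250 bases before its start.

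**Figure D3:**
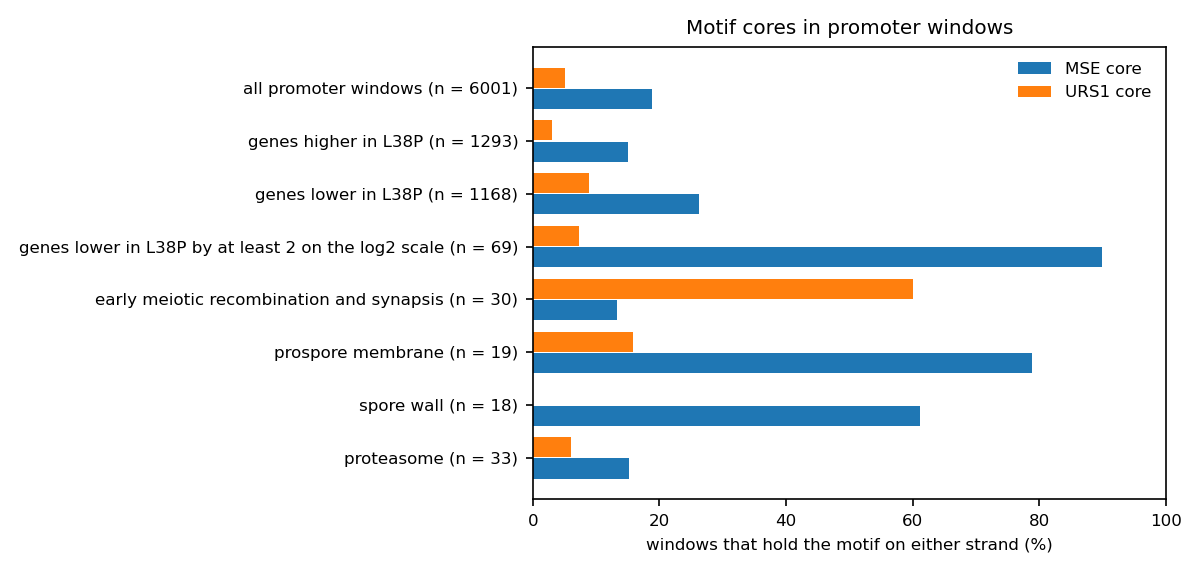
Share of promoter windows (horizontal axis, %) that hold the MSE core (blue) or the URS1 core (orange) on either strand, for all windows, for genes called in L38P against CUP1-PHO92 and for 4 gene lists; n is the number of windows. The MSE bar reaches 89.9% for the genes lower by at least 2 on the log2 scale and the URS1 bar 60% for early genes, against 18.8% and 5.13% of all windows.

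Cytosolic ribosomal protein genes were higher as a body. Of 127, 122 rose and none fell, with a median of 1.37 against the 0.0419 of all features. Their summed level was 17670, 21640 and 23080 CPM in the L38P libraries and 9708, 7682 and 9271 CPM in those of CUP1-PHO92. RPS9A (YPL081W), of the small subunit, had 9.32, 8.69 and 11.4 CPM in CUP1-PHO92 and 35.8, 67.8 and 47.3 CPM in L38P (2.36, SE 0.325, adjusted p 2.38e-05). RPL37A (YLR185W), of the large subunit, had 9.44, 8.79 and 12.0 CPM against 37.5, 59.0 and 50.7 CPM (2.28, SE 0.293, adjusted p 1.34e-05). RPS22A and RPS17B each rose by 2.17 (adjusted p 3.22e-05 and 1.04e-05). Most of these genes have a near-identical paralog, so how counts were divided within a pair is uncertain. Without L38P replicate 2, 120 rose (median 1.32), and the batch term gave 120 as well. Ribosome biogenesis genes rose less and less securely. Of 88, 36 rose and 3 fell (median 0.48), among them UTP22, a factor of small subunit assembly, by 1.21 (adjusted p 0.00046). This count dropped to 7 without L38P replicate 2, to 15 with the batch term, and to 13 and 11 without CUP1-PHO92 replicates 1 and 2. Few mitochondrial ribosomal protein genes passed, with 3 of 70 higher, 12 lower and a median of -0.10. MRPL23, of the large mitochondrial subunit, fell by 0.56 (adjusted p 0.000519).

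Amino acid and sulfur genes were higher together with the ribosomal proteins. Of 46 amino acid biosynthesis genes 36 rose and none fell (median 0.84), and of 30 sulfur assimilation genes 23 rose and none fell (median 0.82). HOM3 (YER052C), the aspartate kinase that opens threonine and methionine synthesis, had 35.5, 36.5 and 63.7 CPM in CUP1-PHO92 and 174, 291 and 202 CPM in L38P (2.30, SE 0.368, adjusted p 8.24e-05). HIS1 rose by 1.82 and LEU4 by 1.54 (adjusted p 0.000128 and 1.29e-05). The summed level of the amino acid genes was 28690 to 30330 CPM in L38P and 18440 to 19840 CPM in CUP1-PHO92. In W177A replicate 1, the only other batch B library, it was 27210 CPM, against 18210 and 19060 CPM in the other W177A libraries, and 35 of the 46 rose in L38P with the batch term. The transcript of GCN4, the activator of these genes, which is mostly controlled in translation, had a log2 fold change of -0.12 (adjusted p 0.515).

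In the sulfur list the highest value belonged to JLP1 (YLL057C), a dioxygenase that frees sulfur from sulfonates. It had 10.6, 7.63 and 8.76 CPM in CUP1-PHO92 and 25.4, 103 and 83.7 CPM in L38P (2.98, SE 0.343, adjusted p 9.46e-06). L38P replicate 1 was far below replicates 2 and 3 but still above every CUP1-PHO92 library. MET17 (YLR303W), which builds homocysteine from sulfide, had 46.7, 42.2 and 75.7 CPM against 198, 322 and 309 CPM (2.33, SE 0.367, adjusted p 7.09e-05). The S-methylmethionine permease gene MMP1 rose by 2.15 and the sulfate permease gene SUL2 by 1.98 (adjusted p 3.84e-05 and 7.05e-06). MET4, the activator of the pathway, rose by 0.55 (adjusted p 0.000716). Outside these lists the autophagy gene ATG41 rose by 2.23 (adjusted p 4.2e-05), from 15.0, 11.7 and 18.0 CPM to 44.4, 89.0 and 75.4 CPM.

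**Figure D4:**
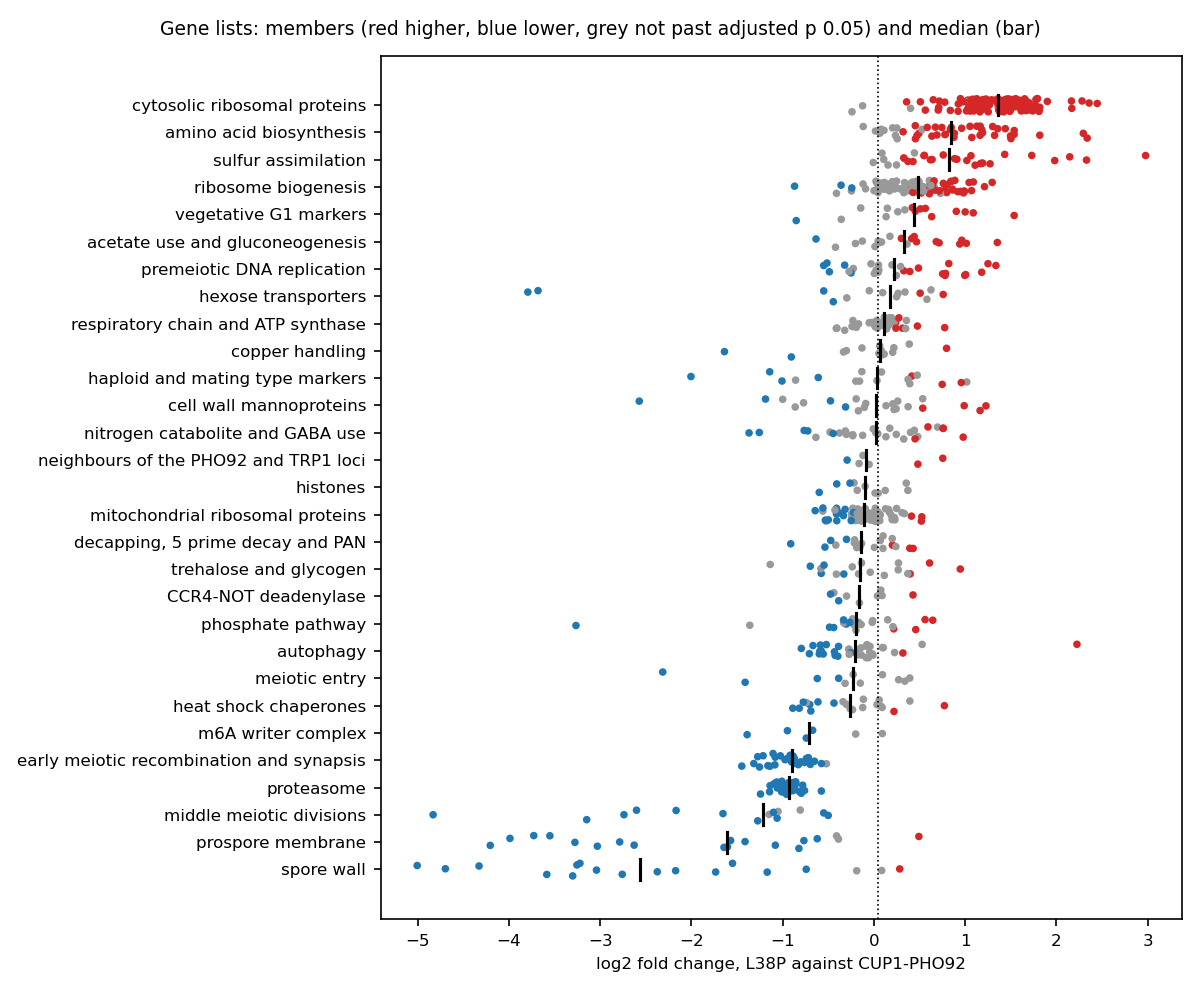
Log2 fold change of L38P against CUP1-PHO92 (horizontal axis) for every tested member of 29 gene lists, ordered by median (black bar); red members rose, blue members fell and grey members did not pass an adjusted p of 0.05, and the dotted line marks the median of all features at 0.0419. Spore wall genes have the lowest median (-2.57) and cytosolic ribosomal proteins the highest (1.37).

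All 33 proteasome genes tested fell, over a narrow range of -1.24 to -0.58 with a median of -0.93. RPN12 (YFR052W), a subunit of the regulatory particle, had 492, 553 and 469 CPM in CUP1-PHO92 and 254, 162 and 223 CPM in L38P (-1.24, SE 0.182, adjusted p 3.73e-05). PRE2, a catalytic subunit of the core, had 593, 701 and 606 CPM against 337, 229 and 294 CPM (-1.14, adjusted p 3.86e-05). RPN4, the transcription factor of proteasome genes, fell by 0.82 (SE 0.169, adjusted p 0.000746). All 33 fell also without L38P replicate 2 and with the batch term. Of 21 heat shock chaperones 7 fell and 2 rose (median -0.26), and 1 rose without CUP1-PHO92 replicate 1 or 2 or L38P replicate 1. The Hsp90 genes HSP82 and HSC82 fell by 0.89 and 0.82 and the Hsp40 gene YDJ1 by 0.77 (adjusted p 0.000453, 0.005 and 0.000671), whereas SSB1, a chaperone that works on the ribosome, rose by 0.77 (adjusted p 0.000439). Of 37 autophagy genes 14 fell and 2 rose (median -0.21). ATG7, the E1-like enzyme of the pathway, fell by 0.80 (adjusted p 1.86e-05). Without L38P replicate 2 the autophagy genes that fell were 9 and 1 rose, and 1 also rose without CUP1-PHO92 replicate 2 or L38P replicate 3.

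The use of acetate, the carbon source of the medium, was higher in part. Of 20 genes 10 rose and 1 fell (median 0.33). YAT1 (YAR035W), a carnitine acetyltransferase that carries acetyl units, had 1050.1, 1133 and 1244 CPM against 2313, 3268 and 3177 CPM (1.35, SE 0.184, adjusted p 2.05e-05). YAT2 rose by 0.96 and ICL1, the isocitrate lyase of the glyoxylate cycle, by 0.94 (adjusted p 8.26e-05 and 6.92e-05). Without L38P replicate 2, 6 of the 20 rose. Of 37 genes of the respiratory chain and ATP synthase 6 rose and none fell, with a median of 0.12. The number that rose was 3, 2 and 3 without CUP1-PHO92 replicate 1, CUP1-PHO92 replicate 2 and L38P replicate 3, and 2 with the 6 libraries alone, and 1 or 2 members fell in 8 of the alternative fits. Among 18 trehalose and glycogen genes 3 rose and 4 fell (median -0.15). The number that fell was 2 with the batch term, and also 2 without CUP1-PHO92 replicate 2 or L38P replicate 2. It was 8 with the replicate block and 7 with the covariate for the leading axis within groups. With the replicate block 5 rose, and 1 rose without CUP1-PHO92 replicate 3 or L38P replicate 1.

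Genes of vegetative G1 and of premeiotic DNA replication were partly higher. Of 16 G1 genes 9 rose and 1 fell (median 0.44), and of 28 replication genes 12 rose and 5 fell (median 0.22). CLN1 (YMR199W), a G1 cyclin, had 9.62, 8.79 and 9.78 CPM in CUP1-PHO92 and 24.0, 30.4 and 27.4 CPM in L38P (1.54, SE 0.166, adjusted p 8.93e-06). PCL1 rose by 1.09 and ASH1 by 0.90 (adjusted p 0.000131 and 4.07e-05), POL30, the sliding clamp, by 1.25 and RAD27, a flap nuclease, by 1.34 (adjusted p 1.46e-05 and 0.00015). The 7 genes fixed as markers of vegetative cells summed to 301.8 to 383.5 CPM in L38P and 191.3 to 213.0 CPM in CUP1-PHO92, with 5 of 7 higher. These markers summed to 308.8 to 329.7 CPM in pho92Δ, 262.7 to 349.3 CPM in Δ35–42 and 252.6 to 307.5 CPM in W177A, ranges that overlap that of L38P. Their part in the ribosomal protein, amino acid and meiotic results was not tested. Of the haploid markers 11 of 12 were in the table, summing to 193.2 to 255.2 CPM in L38P and 205.5 to 247.5 CPM in CUP1-PHO92, groups that overlapped. MFA2, which encodes a-factor in haploid a cells, was filtered out as too low. In the wider list of 17 tested haploid and mating genes 3 rose and 4 fell, with STE12, the pheromone response factor, at 0.96 and STE3, a pheromone receptor, at -1.01 (adjusted p 0.0029 and 0.00555).

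Genes of mRNA decay passed the test at a share no higher than that of all features (44%). Of 9 CCR4-NOT genes, CAF40 fell by 0.47 and MOT2 by 0.39 (adjusted p 0.000707 and 0.00121), and NOT3 rose by 0.43 (adjusted p 0.00821), a call that was lost without L38P replicate 2. The median was -0.16. Of 20 decapping and PAN genes 3 rose and 4 fell (median -0.14). The number that fell was 1 or 2 without L38P replicate 1 or 2 or any 1 CUP1-PHO92 library, 1 with the batch term or the 6 libraries alone, and 7 with the covariate for the leading axis within groups. PBP1, a partner of the poly(A)-binding protein, rose by 0.43 (adjusted p 0.00105), and EDC2, an enhancer of decapping, fell by 0.91 (adjusted p 0.0266) but did not pass in 6 of 13 alternative fits.

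Of 14 copper genes 1 rose and 2 fell, and 2 rose without L38P replicate 1. The copper transporter genes CTR3 and CTR1 fell by 1.64 and 0.90 (adjusted p 9.85e-06 and 0.000354) and the vacuolar CTR2 rose by 0.80 (adjusted p 0.000168). CTR3 had 37.5, 43.4 and 43.9 CPM against 17.8, 9.34 and 13.1 CPM, without overlap. The metallothionein gene CUP1-1, whose promoter drives the construct, had a log2 fold change of 0.09 (adjusted p 0.752). PHO84, the phosphate transporter, fell by 3.27 (SE 0.811, adjusted p 0.00322) from 106, 46.7 and 15.3 CPM, widely spread libraries, to 7.24, 2.56 and 7.76 CPM. PHO84 has an antisense RNA in R64, so the strand caveat of IME4 applies. In the phosphate list 4 of 22 rose and 7 fell (median -0.20), whereas without L38P replicate 2, CUP1-PHO92 replicate 1 or CUP1-PHO92 replicate 2 the number that fell was 2, 4 or 3. Of 14 hexose transporters 2 rose and 4 fell, and 0 or 1 rose whenever 1 library was left out. HXT10 and HXT14 had log2 fold changes of -3.79 and -3.68 (adjusted p 0.00374 and 0.00103). In the nitrogen list 5 of 31 rose and 5 fell, including DAL80, a repressor of nitrogen-regulated genes, which fell by 1.37 (adjusted p 0.024) but did not pass in 5 of 13 alternative fits. The number of nitrogen genes that fell was 10 without L38P replicate 1 and 3 without L38P replicate 2 or 3 or CUP1-PHO92 replicate 1. The number that rose was 3 without L38P replicate 1 or CUP1-PHO92 replicate 1 or 2. Of 22 cell wall mannoprotein genes 4 rose and 4 fell, and 1 or 2 fell without CUP1-PHO92 replicate 2 or L38P replicate 2. CWP1 fell by 2.57 (adjusted p 0.00254), while TIP1 rose by 1.16 and the protease gene YPS6 by 1.23 (adjusted p 0.000459 and 3.57e-06). Of 11 histone genes 3 fell and none rose, with HTZ1, the H2A.Z variant, down by 0.60 (adjusted p 0.000976). TPO1 (YLL028W), a polyamine exporter, had one of the lowest p-values among the genes that rose, from 28.1, 24.2 and 25.1 CPM to 82.0, 81.5 and 61.0 CPM (1.54, SE 0.145, adjusted p 3.57e-06).

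L38P was then set directly against the strain without Pho92, against Δ35–42 and against W177A. These comparisons use the same 3 L38P libraries. L38P differed from pho92Δ in 1677 genes (29.4% of the features tested, 15.3% higher and 14.1% lower), from Δ35–42 in 2069 (36.3%, 19.4% and 16.9%) and from W177A in 2264 (39.7%, 20.2% and 19.5%). In the same direction and past the threshold against CUP1-PHO92 and all 3 of these groups, 368 genes were higher (6.46% of those tested) and 393 were lower (6.9%). The ribosomal proteins were higher in L38P than in pho92Δ for 124 of 127 genes (median 1.28), than in Δ35–42 for 125 (median 1.60) and than in W177A for 123 (median 2.01). Early meiotic genes were lower than in pho92Δ for 29 of 30 (median -0.86), and for all 30 against Δ35–42 and W177A (medians -0.84 and -1.04). IME1, at 4025 ± 65.9 CPM in pho92Δ (SD, n = 3), was lower in L38P by a log2 fold change of -0.86 (adjusted p 0.00136), and IME2 by one of -1.03 (adjusted p 0.000229). JLP1 had 8.22 ± 0.563 CPM in pho92Δ, 7.35 ± 0.178 CPM in Δ35–42 and 7.72 ± 2.51 CPM in W177A (SD, n = 3 each), and was higher in L38P than in each by 3.11, 3.27 and 3.19 (adjusted p 9.32e-06, 6.05e-06 and 9.59e-07). GAS4, a spore wall glucan enzyme, and SPO77 were lower than in pho92Δ by log2 fold changes of -1.45 and -1.83 (adjusted p 0.0439 and 0.0446). Both were named because they were lower past the threshold in all of these comparisons, so their passing here follows from that choice. In the prospore membrane list 3 of 19 genes were lower than in pho92Δ and 1 was higher (median -0.96). In the list of the divisions 2 of 14 were lower and 0 higher (median -0.47). The share of all features lower than in pho92Δ was 14.1%.

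**Figure D5:**
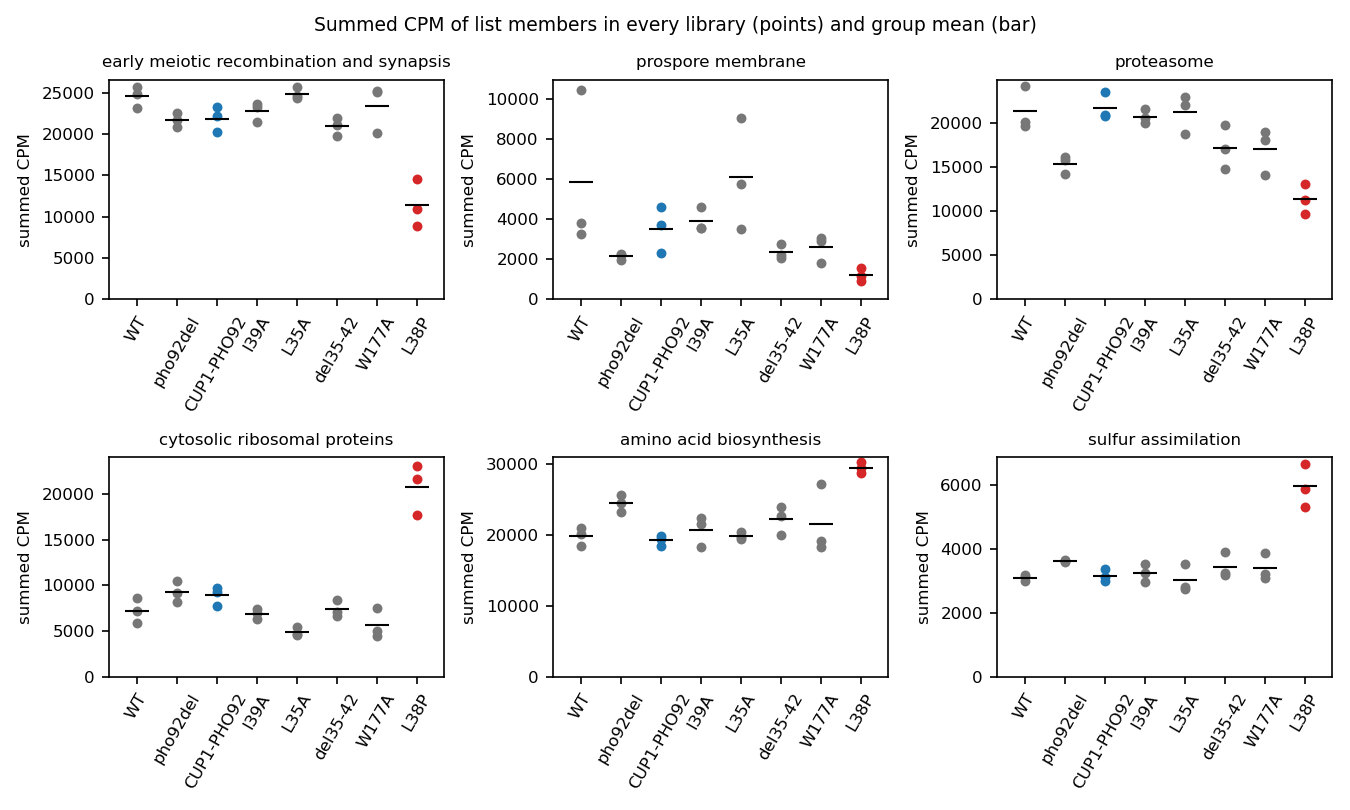
Summed CPM of the tested members of 6 gene lists (vertical axes from 0) in each of the 24 libraries, by group, with bars at group means; L38P is red and CUP1-PHO92 blue. In early meiotic genes the L38P libraries sit between 8837 and 14530 CPM and in ribosomal proteins between 17670 and 23080 CPM, apart from all other libraries.

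CLN1, TPO1, YAT1 and SPR2 did not pass in the test against the strain without Pho92, whereas part of the proteasome genes and most mitochondrial ribosomal proteins did. CLN1 had 29.0 ± 0.878 CPM in pho92Δ (SD, n = 3), and the log2 difference of L38P from it was -0.09 (SE 0.158, adjusted p 0.702). For TPO1 it was 0.19 (SE 0.140, adjusted p 0.32) and for YAT1 -0.05 (SE 0.181, adjusted p 0.852). Of 16 G1 genes 2 were higher than in pho92Δ and 3 lower, and of 28 replication genes 2 were higher and 3 lower. Of the 18 genes in the spore wall list, which does not include GAS4, none passed against pho92Δ in either direction, although the median was -1.02. Against Δ35–42 and W177A, 8 and 13 of the list were lower (medians -1.42 and -1.53). SPR2 stood at 17.0 ± 6.64 CPM in pho92Δ (SD, n = 3) and did not pass (-1.63, SE 0.960, adjusted p 0.208). Proteasome genes were lower than in pho92Δ for 17 of 33 (median -0.37). Amino acid genes were higher than in pho92Δ for 16 of 46 (median 0.36), and than in Δ35–42 and W177A for 37 and 40. HOM3 did not pass against pho92Δ (0.74, adjusted p 0.116). Sulfur genes were higher than in pho92Δ for 18 of 30 (median 0.685) and ribosome biogenesis genes for 9 of 88 (median 0.23), against 15.3% of all features. The mitochondrial ribosomal proteins were higher in L38P than in pho92Δ for 62 of 70 genes (median 0.63), and than in Δ35–42 for 50 (median 0.47).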

How the data were processed

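Counts per annotated feature were deposited by the authors without normalization, 1 column per library. Per the submitters' processing notes STAR 2.7.10a, RSEM 1.3.1 and DESeq2 1.48.1 were used, with no role stated. The genome build, annotation and strand setting are not given in the sources used here, and RSEM estimates are fractional, so whole numbers may be rounded. Of 6157 features, 5620 matched a RefSeq R64 locus tag and took its gene name. Using R 4.3.3 and edgeR 4.0.16, filterByExpr kept 5698 features, TMM factors were applied and 1 quasi-likelihood model, with 1 coefficient for each group, covered all 24 libraries (16 residual degrees of freedom); log2 fold changes, SE and p-values adjusted over all features come from it. CPM uses TMM-scaled library sizes. Intervals and floors cover counting error only. On simulated counts for this comparison (5682 genes, 50 changed at each size) the test recovered 88% and 83.7% of genes changed by a log2 of 1 and -1, and 38% and 32.7% at 0.5 and -0.5, with 3 false calls. Far fewer genes changed there than were called in the data, and each gene was drawn independently. In the data the leading axis within groups held 35.7% of the variance within groups. The simulated rates therefore need not hold for this comparison. All replicate pairs of a group differed by more than sampling noise (chi-square per feature at least 21.9). Same-numbered L38P and CUP1-PHO92 libraries did not deviate together (r -0.162, -0.282 and 0.303), so no block was used. Genes named were PHO92 and TRP1, the 8 largest folds and 4 smallest p in each direction (at least 10 CPM on average, groups not overlapping), up to 4 members per list, the 4 largest in each direction past the threshold in all 4 comparisons, and the loci's neighbours; others were chosen after their values were seen. A gene that this rule names is not reported here. The members and lists were chosen with earlier results of these data known. Alternatives were RLE scaling, no filter, the replicate block, the 6 libraries alone, DESeq2 1.42.0, a minimum fold, a batch term, a covariate for the leading axis within groups and leaving out each library.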

Additional observations from a re-analysis of the deposited data

How the results depend on the processing

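L38P against CUP1-PHO92 gave 2507 genes past the threshold. A minimum absolute log2 fold change of 1 left 485 (301 higher, 184 lower). With the replicate block there were 2853, with RLE scaling 2546, with no filter 2503, with the 6 libraries alone 2052, with DESeq2 2677, with the batch term 2103 and with the within-group covariate 2942. That covariate was derived from the spread within groups of these same libraries and removes part of it. Its count is therefore not an independent check. Leaving out 1 library gave 1753 to 2485, lowest without L38P replicate 2, when 1731 of the 2507 genes were shared, all in the same direction. Against Δ35–42 the range was 1123 to 2399 (1123 without L38P replicate 2 and 1243 without Δ35–42 replicate 1; 2069 in all libraries) and against pho92Δ 1020 to 1988 (1020 without L38P replicate 2; 1677 in all). Of 128 named genes, 124 passed. Over all named genes and alternatives, 1581 values kept their side of the threshold and 83 kept their direction but no longer passed. Where the gene passed in the main fit or in the alternative, 0 values reversed. A change of sign was not counted where the gene passed in neither. The median over all features was between 0.024 and 0.0718. The replicate numbers did not pair the libraries (r -0.162, -0.282 and 0.303 between same-numbered libraries), so the replicate block is only an alternative. Changes of 0.5 on the log2 scale were often missed in simulated data at this number of libraries, where far fewer genes changed than were called here.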
